A study of Danio rerio with 12 samples.

Results

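The genes examined here are 8 genes of the podocyte and the glomerulus, namely nphs1, kirrel1a, cd2ap, podxl, ptpro, magi2a, wt1a and wt1b. The rule that picks them uses names, and the set was proposed with earlier results of these data known. The deposited tables list 32520 Ensembl gene identifiers (IDs), and the 8 names were matched to 10 of them. A name was matched to the zebrafish symbol of an ID or, where no such symbol existed, to the upper-case name of the mammalian orthologue without the letter of the zebrafish copy. Since kirrel1a and magi2a were matched in the second way, each took 2 IDs, KIRREL1 (ENSDARG00000001634 and ENSDARG00000056998) and MAGI2 (ENSDARG00000021590 and ENSDARG00000073769), and which of them is copy a was not resolved. The other IDs are nphs1 (ENSDARG00000060758), cd2ap (ENSDARG00000015224), podxl (ENSDARG00000031228), ptpro (ENSDARG00000100422), wt1a (ENSDARG00000031420) and wt1b (ENSDARG00000007990). The ID of wt1a was also matched through its orthologue name, WT1.

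Transcripts were measured at 120 hours post fertilization (hpf) in whole zebrafish larvae, in 6 elmo1-/- and 6 elmo1+/+ samples, each a pool of 30. The elmo1-/- line carries a CRISPR/Cas9-induced insertion of 10 bp in exon 2 of elmo1, which shifts the reading frame to an early stop codon. All fish of both genotypes belong to the Tg(fli1:EGFP) reporter line, in which the fli1 promoter drives EGFP mainly in endothelial cells. The authors name littermates as controls for knockout animals in their methods for adult fish. They do not state this for the sequenced pools. The sample titles call the mutants knockouts, while their genotype field reads hz, which the labels do not explain. No label states whether samples came from separate clutches, so p-values measure the spread between these pools, which may be partly technical. Elmo1 is an adaptor protein which, bound to Dock exchange factors, switches on Rac1, a regulator of the actin cytoskeleton.

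Podocytes are the epithelial cells that wrap the capillaries of the glomerulus, and the slit diaphragm between their interlocking foot processes is the last barrier of filtration. Its core is built of nephrin (nphs1) and Neph1 (kirrel1), which reach across the slit, while Cd2ap and Magi2 tie them to the actin cytoskeleton from inside the cell. In the zebrafish pronephros, a single fused glomerulus in the midline serves the larva, and it filters well before 120 hpf. Podocytes are a very small part of a larva, and several of these genes are also active elsewhere, such as podxl in vessels, magi2 and ptpro in neurons and wt1a in the epicardium. In pooled larvae, fewer podocytes and less RNA per podocyte cannot be told apart, and neither can a podocyte change from an opposite change in another tissue.

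Total expected counts, in units of 1000000, lay between 20.8 and 21.3 for elmo1-/- and between 20.9 and 21.8 for elmo1+/+ samples, and the 20 most abundant genes held 17.0% to 19.1% of them in elmo1-/- pools and 17.7% to 18.2% in elmo1+/+ pools. The targeted gene elmo1 was measured at 97.1 to 119.7 counts per 1000000 counts (CPM) in elmo1-/- and at 121.7 to 143.3 CPM in elmo1+/+ samples, so the genotypes did not overlap (exact permutation test, two-sided, p = 0.00217, which is the lowest possible with 6 against 6). The log2 fold change of elmo1, elmo1-/- over elmo1+/+ here and throughout, came to -0.26 (SE 0.059; edgeR adjusted p = 0.14). The transcript was thus lower but still present in the mutants. The defining podocyte marker nphs1 was detected in every sample. None of the 8 genes lies on the chromosome of elmo1 (0 of 8).

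None of the 10 IDs changed between the genotypes at an adjusted p under 0.05 in edgeR's quasi-likelihood test (0 of 10, against 0.234% of the 21830 genes tested). At an unadjusted p under 0.05 there were also 0 of 10, against 6.16% of all genes, and DESeq2 and limma-voom called 0 of 10 as well. All 10 IDs had passed the filter on low counts. Of the 10, 4 had a higher and 6 a lower mean in elmo1-/- larvae, the median log2 fold change was -0.027 against 0.0043 over all genes tested, and the median absolute log2 fold change was 0.080 against 0.071. The CPM ranges of the genotypes overlapped for every ID (0 of 10 without overlap, against 0.513% of all genes). The summed level of the 10 IDs, in transcripts per 1000000 transcripts (TPM), was 74.3 to 93.6 in elmo1-/- larvae, with a median of 81.6, and 81.2 to 95.5 in elmo1+/+ larvae, with a median of 85.1. On the log2(TPM + 1) scale the median log2 fold change over all genes tested was itself below 0, at -0.038.

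**Figure D1:**
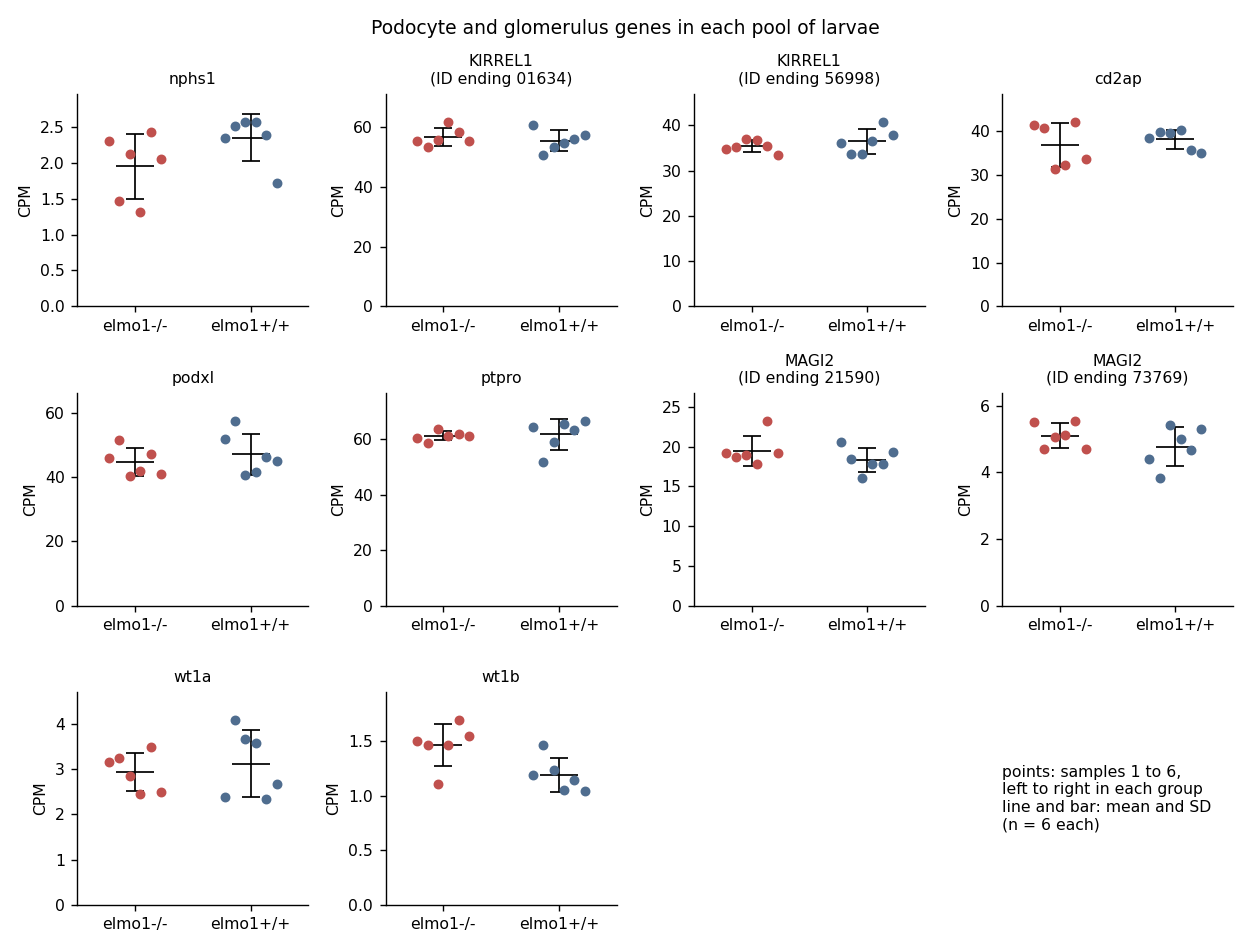
Counts per 1000000 counts (CPM, linear axis from 0) of the 10 IDs in each of the 6 elmo1-/- samples (red, left) and the 6 elmo1+/+ samples (blue, right), with mean and SD. The points of both genotypes overlap in every panel, and the cd2ap points of elmo1-/- larvae form an upper group of 3 and a lower group of 3.

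How large a difference could have gone unseen was read from the 95% interval of each log2 fold change. For 8 of the 10 IDs the whole interval lay within a 1.5-fold change in either direction. The exceptions were nphs1 and wt1b, which also had the lowest mean counts of the set. For each of these a difference of 1.5-fold in one direction, lower for nphs1 and higher for wt1b, lay within the interval. The intervals refer to RNA of whole larvae, where several of these genes are also active outside podocytes. They do not bound a change within podocytes.

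**Figure D2:**
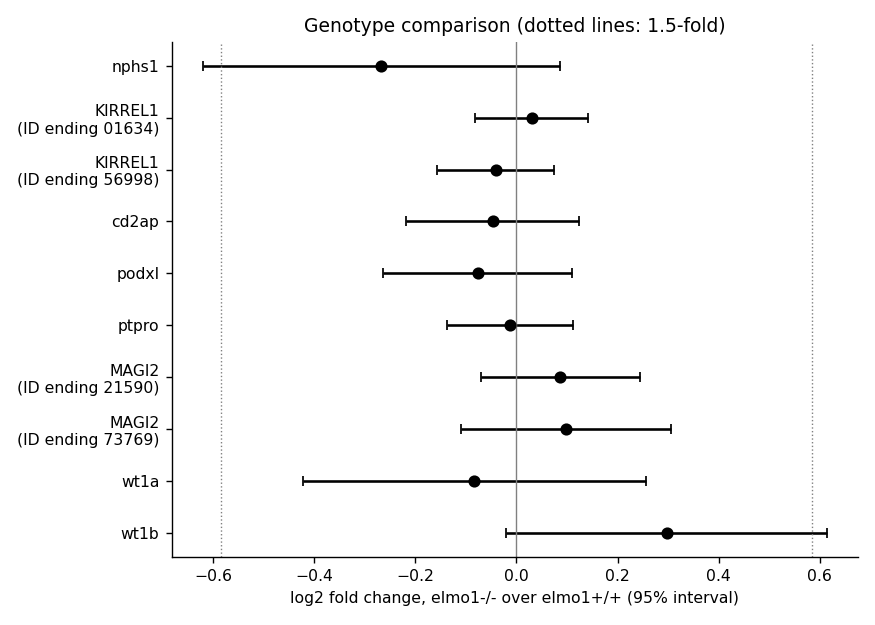
Log2 fold change of each ID, elmo1-/- over elmo1+/+, with its 95% interval (horizontal axis in log2 units), ordered by role. Every interval includes 0, and the intervals of nphs1 and wt1b cross the dotted lines at 1.5-fold.

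Among the proteins of the slit itself, nphs1 had the lowest log2 fold change of the set and, by TPM, the lowest level, while by CPM wt1b was lower still. Nephrin is the transmembrane protein that zips neighbouring foot processes together, and its loss causes congenital nephrotic syndrome in humans. nphs1 was measured at 1.32 CPM in the lowest, 2.09 CPM at the median and 2.43 CPM in the highest elmo1-/- sample, and at 1.72, 2.45 and 2.57 CPM in elmo1+/+ samples. Thus 0 of 6 elmo1-/- samples reached above the elmo1+/+ median, and 2 of 6, samples 2 and 4, lay below the lowest elmo1+/+ sample. For ptpro, with a log2 fold change of only -0.013, 0 of 6 elmo1-/- samples reached above the elmo1+/+ median as well. The mean CPM was 1.95 ± 0.45 over elmo1-/- and 2.35 ± 0.32 over elmo1+/+ samples (SD, n = 6 each). The log2 fold change of -0.27 (SE 0.17, 95% interval -0.62 to 0.085) did not exceed the spread between samples (edgeR adjusted p = 0.93; two-sided exact permutation test, p = 0.12).

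These nphs1 values rested on 27 to 56 expected counts per sample. Counting error alone corresponds to a coefficient of variation of 14.8% at its mean count, against a measured 23.2% in elmo1-/- and 13.8% in elmo1+/+ samples. The sample elmo1+/+ 6, at 1.72 CPM, lay apart from the other 5 samples of its genotype. Leaving out each sample in turn moved the log2 fold change between -0.34 and -0.18 (-0.18 without elmo1-/- 4), and on the log2(TPM + 1) scale, which understates changes of low genes, it was -0.10. No setting brought its adjusted p under 0.61.

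Neph1 (KIRREL1), the binding partner of nephrin across the slit, was measured by both IDs with little spread. The ID ENSDARG00000001634 had 53.5, 55.8 and 61.9 CPM in the lowest, median and highest elmo1-/- sample and 50.8, 55.5 and 60.7 CPM in elmo1+/+ samples, and its log2 fold change came to 0.031 (SE 0.053, 95% interval -0.081 to 0.14; edgeR adjusted p = 0.98). The ID ENSDARG00000056998 had 33.5, 35.2 and 37.0 CPM in elmo1-/- and 33.6, 36.4 and 40.8 CPM in elmo1+/+ samples, a log2 fold change of -0.041 (SE 0.054, 95% interval -0.16 to 0.075; edgeR adjusted p = 0.98). For both copies the samples of one genotype lay almost wholly among those of the other.

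Of the proteins that anchor the slit diaphragm inside the cell, Cd2ap links nephrin to the actin cytoskeleton. cd2ap was measured at 31.4, 37.2 and 42.2 CPM in the lowest, median and highest elmo1-/- sample and at 35.2, 39.0 and 40.4 CPM in elmo1+/+ samples. The means differed little, at 37.0 ± 5.0 for elmo1-/- and 38.2 ± 2.2 CPM for elmo1+/+ pools (SD, n = 6 each), and the log2 fold change was -0.047 (SE 0.080, 95% interval -0.22 to 0.12; edgeR adjusted p = 0.98). Leaving out each sample gave -0.088 to -0.0041, the extremes without elmo1-/- 5 and without elmo1-/- 3. The elmo1-/- samples were split around the controls. Samples 1, 2 and 5 had 41.4, 40.8 and 42.2 CPM, above every elmo1+/+ sample, and samples 3, 4 and 6 had 31.4, 32.3 and 33.7 CPM, below every elmo1+/+ sample. Whether the spread differed between genotypes was not tested. The coefficient of variation was 13.5% in elmo1-/- and 5.79% in elmo1+/+ samples, where counting error gives 3.54%.

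The same pools parted in 2 further genes of the set, podxl and wt1a. They did not part in nphs1, wt1b, ptpro or any KIRREL1 or MAGI2 ID. The grouping was taken from cd2ap, and within elmo1-/- samples cd2ap correlated with podxl (Pearson r 0.88) and with wt1a (0.86). How many of all tested genes part in this way was not counted. The share among unrelated genes is thus not known, for these genes or for the lists below. In elmo1-/- samples 1, 2 and 5, podxl was at 45.8, 51.4 and 47.1 CPM and wt1a at 3.15, 3.24 and 3.48 CPM. In elmo1-/- samples 3, 4 and 6, podxl was at 40.3, 41.9 and 40.9 CPM and wt1a at 2.85, 2.44 and 2.50 CPM. Unlike for cd2ap, all of these values except podxl in sample 3 lay within the range of the elmo1+/+ samples. Among the further lists, described below, the markers of epicardium and mesothelium and of skeletal muscle also parted between these pools by their means. The lists of slit diaphragm, basement membrane, tubule and duct, transcription factor, neuron, macrophage, endothelium and exocrine pancreas genes did not part by their means. The epicardium and mesothelium markers (8 IDs) lay 0.15, 0.21 and 0.018 log2 units above their mean over all samples in elmo1-/- 1, 2 and 5 and at -0.17, -0.17 and -0.11 in elmo1-/- 3, 4 and 6. The skeletal muscle markers (12 IDs) took the opposite places, at -0.047, -0.0038 and -0.20 log2 units in the first and 0.14, 0.059 and 0.20 in the other pools. Their summed TPM parted likewise for muscle. It was 57020 to 64720 in elmo1-/- 1, 2 and 5 and 67170 to 68100 in elmo1-/- 3, 4 and 6. For the epicardium and mesothelium it did not part, with 244.3 to 348.1 TPM and 251.6 to 271.4 TPM in the same pools. By summed TPM the tubule and duct list also parted, at 688.3, 663.9 and 646.4 against 600.8, 624.6 and 600.5. So did the sum of the 10 IDs, at 88.37, 81.86 and 93.58 against 78.67, 81.4 and 74.25. This sum includes cd2ap, podxl and wt1a themselves, so it is not a further instance of the split. The endothelial list parted narrowly, at 111.9, 99.73 and 113.5 against 94.55, 99.69 and 99.0, but not without fli1a. The other lists did not part by summed TPM. The part of these tissues in the split was not tested, and the split was noticed in the data.

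Magi2 is a scaffold protein that binds nephrin at the base of the slit. MAGI2 ENSDARG00000021590 was measured at 17.8, 19.1 and 23.2 CPM in the lowest, median and highest elmo1-/- sample and at 16.1, 18.2 and 20.6 CPM in elmo1+/+ samples (log2 fold change 0.087, SE 0.074, 95% interval -0.070 to 0.24; edgeR adjusted p = 0.96). MAGI2 ENSDARG00000073769 was measured at 4.69, 5.10 and 5.54 CPM in elmo1-/- and at 3.84, 4.84 and 5.41 CPM in elmo1+/+ samples (log2 fold change 0.098, SE 0.097, 95% interval -0.11 to 0.31; edgeR adjusted p = 0.97). Both copies had higher means in elmo1-/- larvae, by less than the spread between samples. Without elmo1-/- 5 the log2 fold change of the first was 0.030, and that of the second was 0.043 without elmo1+/+ 2 and 0.013 on the log2(TPM + 1) scale. The highest value of the first, in elmo1-/- 5, stood apart from the other 5 samples of its genotype.

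At the surface of the podocyte, podocalyxin (podxl) is the negatively charged sialoprotein that keeps foot processes apart, and Ptpro is a receptor tyrosine phosphatase of the apical membrane. podxl was measured at 40.3, 43.9 and 51.4 CPM in the lowest, median and highest elmo1-/- sample and at 40.5, 45.6 and 57.4 CPM in elmo1+/+ samples (log2 fold change -0.077, SE 0.087, 95% interval -0.26 to 0.11; edgeR adjusted p = 0.97). ptpro was measured at 58.7, 61.1 and 63.6 CPM in elmo1-/- and at 51.6, 63.8 and 66.5 CPM in elmo1+/+ samples (log2 fold change -0.013, SE 0.059, 95% interval -0.14 to 0.11; edgeR adjusted p = 0.99). In elmo1-/- larvae ptpro was the steadiest of the set, with a coefficient of variation of 2.64%, close to the 2.77% that counting error gives, against 8.98% in elmo1+/+ larvae. The lowest elmo1+/+ value of ptpro came from sample 2, which was also the highest for podxl, and without this sample the log2 fold change of podxl was -0.012 and that of ptpro -0.059.

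The remaining members are transcription factors. Wt1 is required for the specification of podocytes, and in zebrafish its copies wt1a and wt1b are both active in the forming glomerulus. wt1a was measured at 2.44, 2.998 and 3.48 CPM in the lowest, median and highest elmo1-/- sample and at 2.34, 3.12 and 4.08 CPM in elmo1+/+ samples. Its log2 fold change of -0.083 (SE 0.16, 95% interval -0.42 to 0.26; edgeR adjusted p = 0.98) became 0.0074 without elmo1+/+ 2, the highest sample. Among the other members, only KIRREL1 ENSDARG00000001634 and ptpro, both close to 0, also turned direction in a setting tried.

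wt1b had the highest log2 fold change of the set. It was measured at 1.11, 1.49 and 1.70 CPM in the lowest, median and highest elmo1-/- sample and at 1.05, 1.17 and 1.47 CPM in elmo1+/+ samples. Thus 5 of 6 elmo1-/- samples lay above the elmo1+/+ median and 3 of 6 above the highest elmo1+/+ sample. The mean CPM was 1.47 ± 0.19 over elmo1-/- and 1.19 ± 0.16 over elmo1+/+ samples (SD, n = 6 each), with a log2 fold change of 0.30 (SE 0.15, 95% interval -0.020 to 0.61), and 0.14 on the log2(TPM + 1) scale. The two-sided exact permutation test of this gene alone gave p = 0.039, a value under 0.05 as reached by 5.95% of all genes, while edgeR gave an unadjusted p of 0.064 and an adjusted p of 0.85. These values rested on 22 to 37 expected counts per sample, for which counting error gives a coefficient of variation of 18.9%, above the measured 13.2% in elmo1-/- and 13.1% in elmo1+/+ samples.

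To compare levels between genes, TPM values, which are divided by transcript length, were used. Over all 12 samples the order was ptpro (30.2 ± 2.5 TPM), podxl (13.8 ± 2.0), cd2ap (12.5 ± 1.7), KIRREL1 ENSDARG00000056998 (11.9 ± 0.85), KIRREL1 ENSDARG00000001634 (8.59 ± 0.70), MAGI2 ENSDARG00000021590 (3.24 ± 0.39), wt1a (2.13 ± 0.45), wt1b (1.31 ± 0.22), MAGI2 ENSDARG00000073769 (0.812 ± 0.093) and nphs1 (0.550 ± 0.15, all mean TPM ± SD, n = 12). The set thus spanned from the 86.9th percentile of all tested genes, at ptpro, to the 3.81st percentile, at nphs1. The genes tied most closely to the identity of the podocyte, nphs1, wt1b and wt1a, were among the 4 lowest. The elmo1+/+ samples alone gave the same order.

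Neighbours in this order were compared within each sample by two-sided exact sign-flip permutation tests over the 12 samples, adjusted over the 9 pairs. Only cd2ap and KIRREL1 ENSDARG00000056998 were not distinguished, with a ratio of 1.05 ± 0.13 (SD, n = 12) and cd2ap higher in 8 of 12 samples (exact permutation test, p = 0.27). podxl exceeded cd2ap in 9 of 12 samples, by a factor of 1.11 ± 0.12 (adjusted p = 0.019 in the exact permutation test). MAGI2 ENSDARG00000073769 exceeded nphs1 in 11 of 12 samples, by 1.61 ± 0.60 (adjusted p = 0.0013 in the exact permutation test). In the other 6 pairs the upper gene was higher in 12 of 12 samples (exact permutation test, adjusted p = 0.00073).

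**Figure D3:**
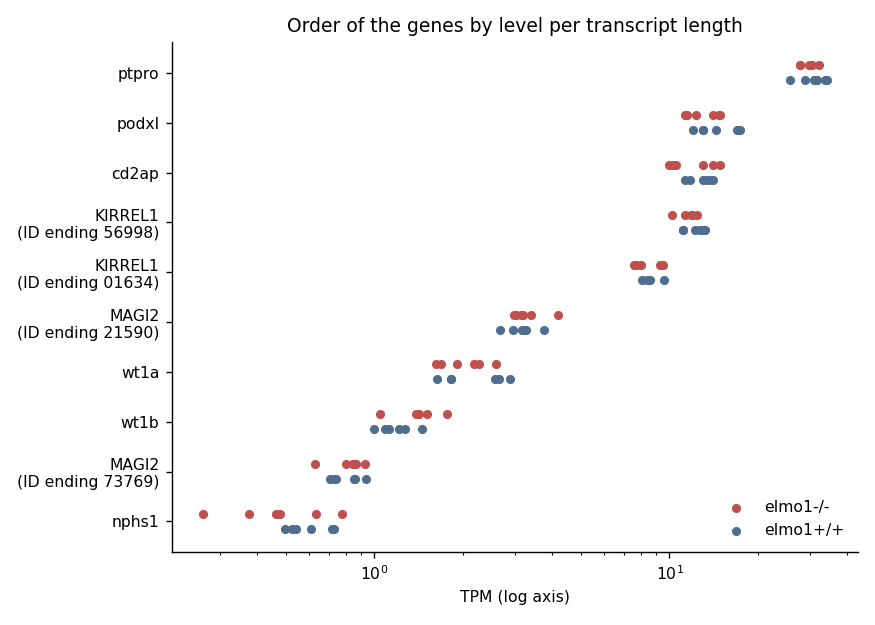
TPM of each ID (log axis) in elmo1-/- samples (red, upper row of each gene) and elmo1+/+ samples (blue, lower row), ordered by mean TPM over 12 samples. The levels run from 30.2 TPM for ptpro to 0.550 TPM for nphs1, and the points of both genotypes overlap at every level.

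Wt1, Neph1 and Magi2 are each encoded by duplicated genes in the fish, and the balance of the copies was compared by their TPM ratio. wt1a exceeded wt1b in 12 of 12 samples, by 1.45 ± 0.25 in elmo1-/- and 1.87 ± 0.39 in elmo1+/+ larvae (SD, n = 6 each). This difference did not pass the threshold (two-sided exact permutation test, p = 0.065, adjusted over 3 ratios 0.19). The ratio of KIRREL1 ENSDARG00000001634 to ENSDARG00000056998 was 0.740 ± 0.053 in elmo1-/- and 0.707 ± 0.041 in elmo1+/+ larvae (exact permutation test, p = 0.26). For MAGI2 ENSDARG00000021590 to ENSDARG00000073769 it was 4.08 ± 0.60 in elmo1-/- and 3.996 ± 0.77 in elmo1+/+ larvae (exact permutation test, p = 0.79). The expected counts of wt1a, wt1b and MAGI2 ENSDARG00000021590 were whole numbers in 12 of 12 samples (tolerance 0.001), so no division of reads was seen in them. Those of both KIRREL1 IDs were whole in 0 of 12 samples and those of MAGI2 ENSDARG00000073769 in 3 of 12, and which other genes shared reads with these IDs is not shown by the tables.

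Expected counts and TPM can part where the quantification assigned another transcript length to a gene in each sample, for example through another mix of isoforms. This length, the count divided by the TPM and scaled by its median in the sample, had a coefficient of variation over the 12 samples of 16.1% for nphs1, the 97.5th percentile of all genes, and of 9.83% for MAGI2 ENSDARG00000073769. The median over all genes was 0.653%. For wt1a, wt1b, cd2ap and ptpro it was between 0.238% and 0.315%. The scaled length of nphs1 was 2.53 ± 0.49 in elmo1-/- and 2.50 ± 0.35 in elmo1+/+ larvae (SD, n = 6 each; two-sided exact permutation test, p = 0.90), so the TPM of nphs1 carried an added spread, which was seen in both genotypes. None of the 10 lengths differed between genotypes after adjustment (0 of 10, lowest adjusted p = 0.19 in the exact permutation test).

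To ask whether the genes varied together from pool to pool, log2 CPM values were centred on the mean of each genotype and correlated over the 12 samples. Among 45 pairs, 25 correlations were positive, the median Pearson r was 0.071, and 0 passed an adjusted p under 0.05 by Pearson's r or by Spearman's rho (permutation test, 100000 resamples). Without adjustment, 7 of 45 had a Pearson p under 0.05. The lowest adjusted p, 0.15 by permutation, was shared by wt1a with cd2ap (r = 0.66, rho = 0.59) and wt1b with ptpro (r = -0.72, rho = -0.75). Without the 2 samples farthest from the median of the first gene named, r was 0.76 for wt1a with cd2ap and -0.64 for wt1b with ptpro. Distance from the median of the second gene was not used. The highest r was that of KIRREL1 ENSDARG00000001634 with ptpro, 0.67 (rho 0.78; permutation p = 0.024, adjusted 0.27). It was 0.85 without the 2 samples farthest from the median of the KIRREL1 ID.

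**Figure D4:**
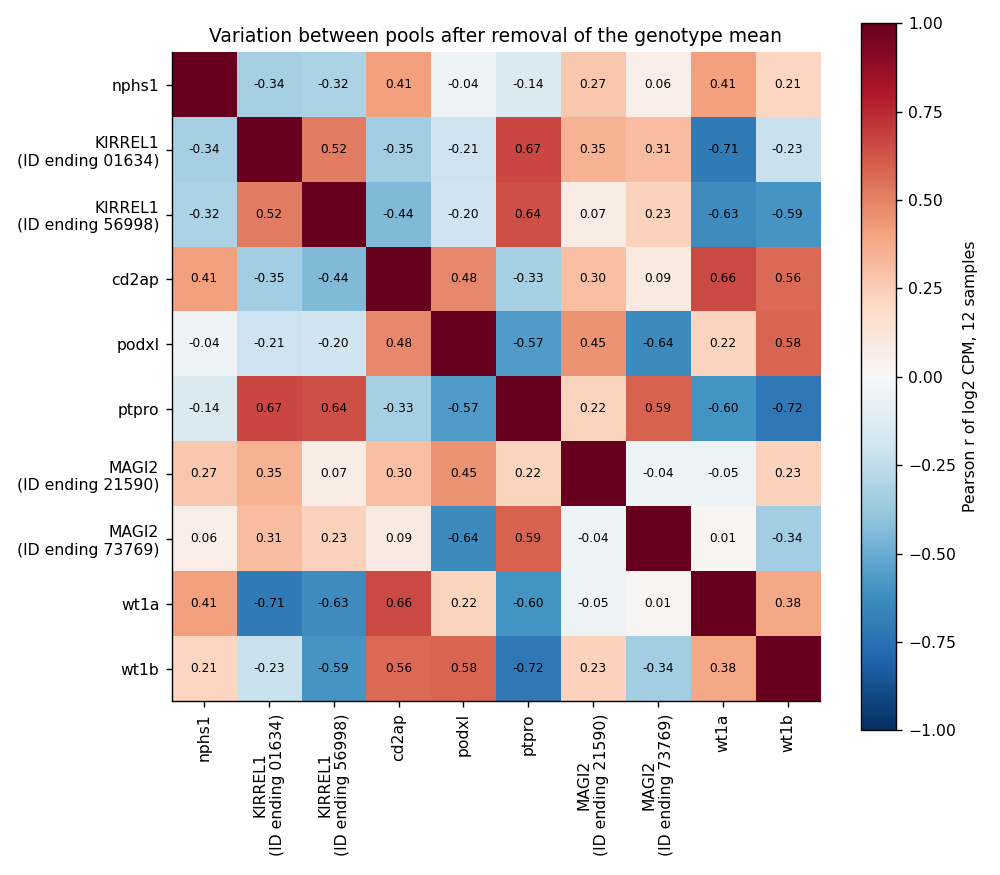
Pearson r between the IDs over 12 samples, computed on log2 CPM after the mean of each genotype was removed (colour and printed value, from -1 to 1). Positive and negative values are mixed, from -0.72 for wt1b with ptpro to 0.67 for KIRREL1 ENSDARG00000001634 with ptpro, and 0 of 45 pairs passed the adjusted threshold.

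The correlations of nphs1 with the other 9 IDs had a median of 0.065. On log2(TPM + 1) values the median was 0.41. On log2 CPM values, r was 0.41 with wt1a and 0.41 with cd2ap, but -0.043 with podxl, -0.14 with ptpro and -0.34 and -0.32 with the KIRREL1 copies. Samples did not rank alike across the set, although elmo1-/- 5 was the highest sample of its genotype for 6 of 10 IDs and elmo1-/- 3 and 4 the lowest for 3 each. Among 17583 genes ranked, those most like nphs1 over the 12 samples were sh3pxd2ab (r = 0.90), si:ch211-285f17.1 (0.88), GSN (0.87), ZNF385A (0.87) and GFOD1 (0.87). For wt1a it was ESRP1 (r = 0.96), for wt1b tuba8l5 (0.90), for podxl LAMP2 (0.94), for cd2ap rab11al (0.96) and for ptpro ska3 (0.94). For the KIRREL1 IDs it was srrm4 (0.97, ENSDARG00000001634) and RNF145 (0.91, ENSDARG00000056998), and for the MAGI2 IDs NTRK2 (0.94, ENSDARG00000021590) and RAB5A (0.93, ENSDARG00000073769). Each is the highest of many correlations over few samples and is given as a description.

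The 8 genes were then set beside the wider gene programme of the podocyte. Of 51 tested IDs of further slit diaphragm and podocyte genes, 0 were called, with a median log2 fold change of -0.016, and 5 of 51 had an unadjusted edgeR p under 0.05, against 6.16% of all genes. In the lists that follow, this held for 0 of 20 basement membrane, 2 of 40 tubule and duct, 1 of 22 transcription factor and 2 of 9 endothelial IDs, and for none of the other tissue markers. Those with the lowest p were anln, an actin-binding protein of cytokinesis and of podocytes, at 21.99 ± 3.11 CPM in elmo1-/- larvae and 26.1 ± 2.2 CPM in elmo1+/+ larvae (edgeR adjusted p = 0.66), foxc1a, a forkhead factor of podocyte specification, at 23.6 ± 2.3 CPM in elmo1-/- and 26.6 ± 1.9 CPM in elmo1+/+ pools (edgeR adjusted p = 0.71), and FAT1 ENSDARG00000019063, a large protocadherin of the slit, at 13.3 ± 2.2 CPM in elmo1-/- and 11.01 ± 1.21 CPM in elmo1+/+ pools (edgeR adjusted p = 0.72). The list's most abundant gene was MAGI1 ENSDARG00000003169, a relative of Magi2, at 156.8 ± 5.5 CPM in elmo1-/- larvae and 154.8 ± 2.4 CPM in elmo1+/+ larvae.

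Collagens, laminins and nidogens of the glomerular basement membrane, on which podocytes sit, were listed with agrn, hspg2 and npnt. Of the 20 tested IDs 0 were called, and 13 had a log2 fold change below 0 and 7 above 0. The 13 were all collagens, laminins or nidogens. Of the same classes, col4a6 (0.058), lama1 (0.064), lamb2l (0.0067) and NID1 ENSDARG00000068710 (0.027) were among the 7. Of all genes tested, 51.7% had a log2 fold change above 0. The 20 IDs of this list had a median log2 fold change of -0.070. Their most abundant gene, col4a5, was at 156.6 ± 20.6 CPM in elmo1-/- larvae and 166.0 ± 10.2 CPM in elmo1+/+ larvae (edgeR adjusted p = 0.96). Without elmo1-/- 5 the log2 fold change of col4a5 was -0.16 in place of -0.084 (edgeR unadjusted p = 0.011, adjusted 0.38), and that of col4a1 was -0.22. Leaving out elmo1-/- 4 weakened both instead, to -0.057 for col4a5 (edgeR unadjusted p = 0.49) and -0.10 for col4a1. In elmo1-/- 5 the list as a whole lay 0.19 log2 units above its mean over all samples, against -0.15 to -0.00080 in the other elmo1-/- pools. The lowest p belonged to NID1 ENSDARG00000103129, col4a1 and LAMB1 ENSDARG00000045524, with log2 fold changes of -0.13, -0.15 and -0.093. Transcription factors of the kidney field gave 0 calls in 22 IDs, with a median of -0.015, where osr1 (log2 fold change -0.22) and six2a (-0.14) followed foxc1a (-0.18). Since the reads come from whole larvae, these values cover other basement membranes and other organs as well.

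In the list of the pronephric tubule and duct, 1 of 40 tested IDs was called, against 0.234% of all genes tested. clu (clusterin, a secreted chaperone that is active in many tissues) averaged 50.6 ± 2.8 over elmo1-/- and 38.7 ± 4.1 CPM over elmo1+/+ samples (SD, n = 6 each), without overlap between genotypes, and rose by 0.38 on the log2 scale (SE 0.068; edgeR adjusted p = 0.028). The adjusted p lay between 0.052 and 0.084 without elmo1-/- 1, 2, 3, 4 or 6 or elmo1+/+ 1 or 4, where the log2 fold change was 0.39, 0.38, 0.39, 0.36, 0.37, 0.35 and 0.34 in this order. With a replicate block the adjusted p was 0.052. The call held with DESeq2 (adjusted p = 0.00018), limma-voom (0.026), median-ratio factors (0.030) and upper-quartile factors (0.026). It also held in edgeR without elmo1-/- 5 or elmo1+/+ 2, 3, 5 or 6, with an adjusted p between 0.023 and 0.049. On the log2(TPM + 1) and log2(TPM + 0.1) scales the log2 fold change was 0.26 on both, with adjusted p of 0.065 and 0.064 in limma. The list's most abundant gene, cd63, had a log2 fold change of 0.0027, and the list's median was 0.00019.

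Among markers of other tissues, 1 gene was called, 1 of 9 endothelial IDs, against 0.234% of all genes tested. fli1a (FLI1), the endothelial factor whose promoter drives the reporter in all these fish, fell to 80.4 ± 6.5 CPM in elmo1-/- larvae, against 104.8 ± 3.1 CPM in elmo1+/+ larvae (SD, n = 6 each; log2 fold change -0.38, SE 0.055; edgeR adjusted p = 0.0045). The 9 endothelial markers summed to 94.6 to 113.5 TPM in elmo1-/- and 115.8 to 130.0 TPM in elmo1+/+ samples. Without fli1a, a setting chosen after seeing the data, the sums overlapped, at 50.8 to 63.9 TPM in elmo1-/- and 53.5 to 63.3 TPM in elmo1+/+ samples. Markers of neurons (0 of 11), macrophages (0 of 10), epicardium and mesothelium (0 of 8), skeletal muscle (0 of 12) and exocrine pancreas (0 of 9) gave no call.

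**Figure D5:**
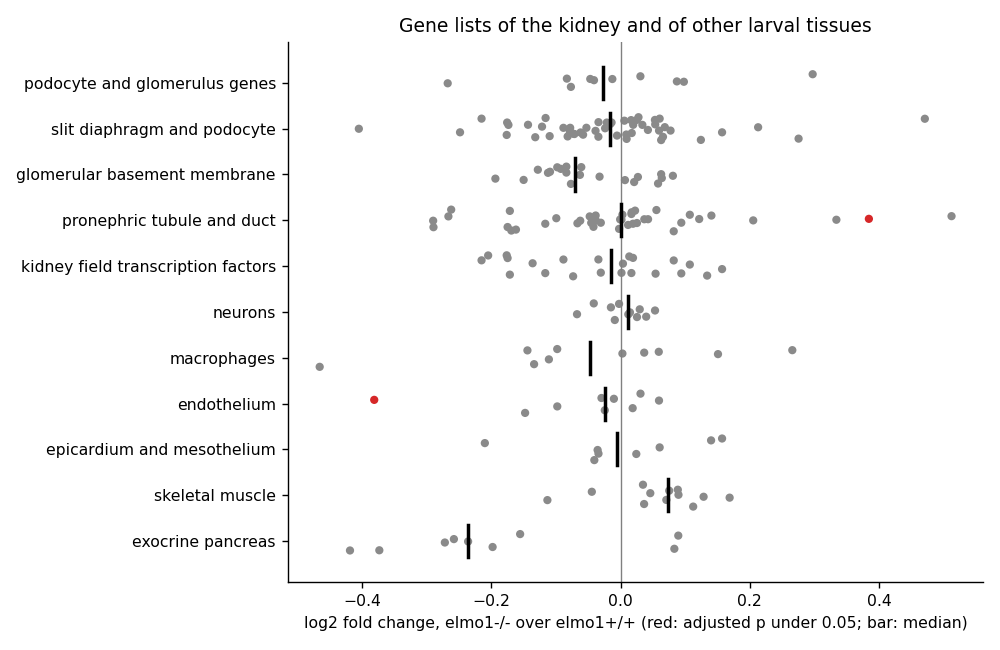
Log2 fold change, elmo1-/- over elmo1+/+, of the 10 IDs (top row) and of each tested ID in 10 further lists (points, spread vertically for display), with the median of each list as a bar and called genes in red. The 2 red points are clu, at 0.38 in the row of the pronephric tubule and duct, and fli1a, at -0.38 in the row of the endothelium, and the top row lies around 0.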

How the data were processed

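Whole larvae at 120 hpf were sequenced on a BGISEQ-500, 6 pools of each genotype. The submitters' processing notes name Trim Galore 0.6.4, kallisto 0.4.6 and GRCz11. The authors deposited estimated counts per gene, not normalized and partly not whole numbers. The authors also deposited TPM values, normalized for transcript length and depth. The titles of the samples gave genotype and replicate number. Counts that are not whole numbers show that reads were divided among transcripts by estimation, which touches nphs1, podxl, both KIRREL1 IDs and MAGI2 ENSDARG00000073769.

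Counts were rounded, since the design had assumed whole counts, filtered with filterByExpr (minimum count 10, 21830 genes), scaled with TMM factors and compared with edgeR 4.0.16 (R 4.3.3, limma 3.58.1) by its quasi-likelihood test, genotype as the only term, Benjamini-Hochberg adjustment over all tested genes and a threshold of 0.05. CPM used the scaled library sizes, and log2 CPM a prior count of 2. Intervals came from the SE. Single values were compared by exact permutation tests (SciPy 1.17.1, Python 3.11.15). The design had foreseen fewer neighbouring pairs by level than the 9 that 10 IDs gave. List values per sample are means of log2(CPM + 0.5), centred per ID. On simulated data, 175 of 200 genes changed by 1 log2 unit were recovered among 21830 genes, with 9 false calls in 184. Simulated data without any change gave 2 calls. The changed genes were drawn from all levels, and their change exceeded every log2 fold change of the 10 IDs. Recovery of changes as small as those of the 10 IDs was therefore not measured.

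Alternatives were DESeq2 1.42.0, limma-voom, limma-trend on log2(TPM + 1) or with 0.1 added, other factors and filters, a replicate block and leaving out each sample. The members and the lists were chosen with earlier results of these data known. Named genes were all members, elmo1, each called gene of a list or else its 3 with the lowest p and its 1 with the highest TPM, and the genes most like each member with a mean of at least 1 log2 CPM. Some genes of the planned set and lists, 1 planned member among them, are not reported here and were left out of the counts and sums. A symbol table gave names for 29201 of 32520 IDs, and chromosomes were looked up by symbol only. No sequences are given.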

Additional observations from a re-analysis of the deposited data

Results flagged for a closer look

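Each genotype of each of the 10 IDs and of elmo1 was examined for a sample that stood apart, by the gap to its nearest neighbour as a share of the range of the 6 samples, with 0.625 as the limit. Of 22 groups examined, 2 held such a sample, where chance gives 1 in 20, or 1.1 groups. nphs1 in elmo1+/+ 6 was at 1.72 CPM, below the other 5 samples at 2.35 to 2.57 CPM (share of the range 0.738). MAGI2 ENSDARG00000021590 in elmo1-/- 5 was at 23.2 CPM, above the other 5 samples at 17.8 to 19.2 CPM (share 0.744). Without elmo1+/+ 6 the log2 fold change of nphs1 was -0.34, and without elmo1-/- 5 that of the MAGI2 ID was 0.030, each with no call.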

How the results depend on the processing

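Under 21 other settings, 5 of 210 log2 fold changes of the 10 IDs turned direction and 0 were called, with 0.61 (nphs1) as the lowest adjusted p. On the log2(TPM + 1) and log2(TPM + 0.1) scales, KIRREL1 ENSDARG00000001634 moved to -0.0068 and -0.0079, while the median of all genes moved to -0.038 and -0.044. Leaving out each sample gave -0.15 to 0.0074 for wt1a and -0.059 to 0.0098 for ptpro. The cause was not tested. DESeq2 called 97 genes in place of 51, and leaving out each sample gave 33 to 66 genes, 33 without elmo1-/- 3 or elmo1-/- 4. Ranked by CPM, which is not divided by length, 8 of 10 genes changed place. The median correlation of nphs1 with the other IDs was 0.41 on log2(TPM + 1) in place of 0.065. elmo1 passed with DESeq2 only (adjusted p = 0.0082).

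Of 713 values of the other named genes, 26 turned. On the log2(TPM + 1) and log2(TPM + 0.1) scales these were MAGI1 ENSDARG00000003169 (-0.043 and -0.043), cd63 (-0.046 and -0.046, and -0.0011 with upper-quartile factors), IRX3 ENSDARG00000101076 (-0.034 and -0.034), STMN2 ENSDARG00000033234 (-0.011 and -0.011) and SNAP25 ENSDARG00000020609 (-0.034 and -0.034). Without each sample, the ranges were -0.00063 to 0.026 for MAGI1, -0.033 to 0.044 for cd63, -0.0059 to 0.039 for IRX3, -0.014 to 0.034 for SNAP25, -0.11 to 0.0090 for POSTN ENSDARG00000104267, and, through elmo1+/+ 2, -0.69 to 0.084 for ela2, -0.71 to 0.11 for prss59.1, -0.49 to 0.076 for prss1 and -0.57 to 0.12 for prss59.2.

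The labels do not say what the shared replicate numbers mark. Deviations of same-numbered samples correlated at 0.14, 0.30, 0.11, 0.16, -0.033 and 0.096 for numbers 1 to 6. The numbers were not taken as pairs because 2 of 6, numbers 5 and 6, did not exceed 0.1. Still, 7 of 12 samples were most like their own number, a hint of shared structure, and number 2 had the highest exocrine pancreas markers in both genotypes (0.786 log2 units above their mean in elmo1-/- 2 and 1.2 in elmo1+/+ 2). With the replicate block 60 genes were called in place of 51, nphs1 had a log2 fold change of -0.28 and wt1b of 0.30, and no call changed among the named genes except that of clu, at 0.39 (edgeR adjusted p = 0.052).

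Depth limited nphs1 and wt1b most, with 22 to 56 expected counts per sample. Values of single podocytes, of isoforms and of IDs that share reads cannot be had from these tables.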
